A study of Arabidopsis thaliana with 27 samples.

Results

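This comparison sets seeds of the Arabidopsis thaliana mutant hid1 beside seeds of the mutant phyB after 48 h of darkness under the phyB-on condition. It rests on 6 of the 27 RNA-seq libraries of the series, 3 of hid1 and 3 of phyB, and covers every gene of the count table. The table had 33612 rows, of which 20465 passed a filter on low counts and were tested. The hid1 seeds lack function of HID1, a noncoding RNA, and the phyB seeds lack function of the photoreceptor phytochrome B. The wild type Col-0 (WT), with 3 libraries at the same time, gives the level from which both mutants depart. In all groups the seeds had been kept dry for about 2 months, had 1 h of white light and then 5 min of red light at 20 μmol m-2 s-1, and stayed in darkness until 48 h. Plants of all genotypes had been grown together and their seeds collected on 1 day. The labels name no mutant allele and call the libraries biological replicates without saying which plants they came from, so the p values measure the spread between these libraries. The 6 libraries held 17576726 to 21470086 counts each.

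Phytochrome B switches between an inactive form and an active form made by red light, and in imbibed seeds the active form starts germination. It removes PIF1, a transcription factor that keeps abscisic acid (ABA) high and gibberellin (GA) low. ABA holds a seed dormant and keeps its maturation genes on, whereas GA lets the embryo grow and weakens the tissue around it. HID1 is known as an RNA that promotes the light response of seedlings in red light. The series asks whether HID1 also serves phytochrome B in germination, by holding down ABA synthesis. Setting the 2 mutants beside each other asks how far the transcripts of seeds without HID1 resemble those of seeds without the photoreceptor itself.

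The 2 mutants were far apart at 48 h. Of the 20465 genes tested, 16152 passed the test between hid1 and phyB (edgeR quasi-likelihood test, Benjamini-Hochberg adjusted p under 0.05), which is 78.9%. Higher levels in hid1 were called in 8399 genes (41%) and lower levels in 7753 genes (37.9%). At least 2-fold, 5325 genes (26%) were higher and 3465 genes (16.9%) were lower. The 3 hid1 libraries lay wholly above the 3 phyB libraries in 41.5% of genes and wholly below them in 38.2%. Against WT, 79.2% of genes passed the test in hid1 (36.3% higher and 43% lower) and 89.4% in phyB (40% higher and 49.4% lower). The mean level in hid1 lay between those of phyB and WT in 13679 genes, or 66.8%. With these shares, a single call says little by itself.

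The mutants differed first in what filled their libraries. The 15 genes for storage proteins and oil bodies, the reserves laid down in the maturing seed, took 5.39, 6.25 and 5.01% of all counts in hid1, against 24.2, 23.3 and 25.1% in phyB, and 1.02 ± 0.279% in WT (SD, n = 3). The cruciferin gene CRA1 alone took 3.24 ± 0.363% in hid1, against 12.4 ± 0.531% in phyB. The 10 most counted genes of each library took 9.18 ± 0.42% in hid1, against 30.1 ± 1.08% in phyB and 5.75 ± 0.268% in WT. In bulk seeds a smaller share of ungerminated seeds, fewer cells of a type and less RNA per cell cannot be told apart, and germination was not analysed here.

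**Figure D1:**
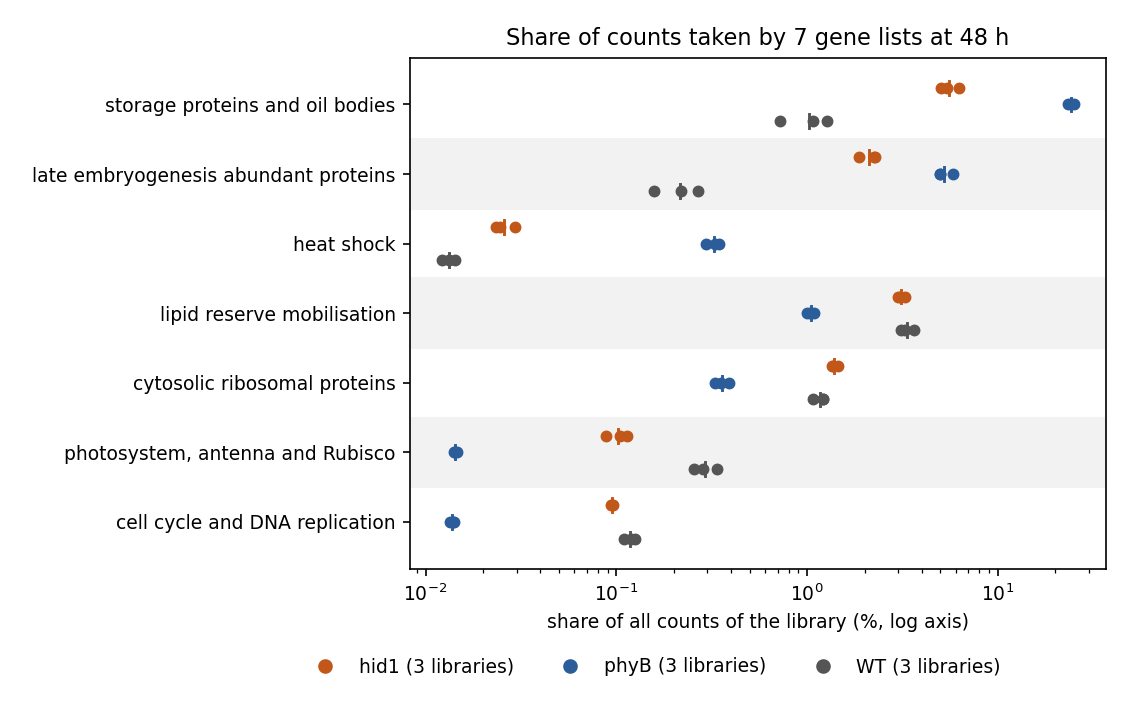
Share of all counts of a library, in percent on a log axis, taken by 7 gene lists at 48 h. Each point is 1 library, the ticks are group means, and hid1 (orange) lies between phyB (blue) and WT (grey) for storage, late embryogenesis abundant, heat shock, lipid mobilisation, photosystem and cell cycle genes, while ribosomal protein genes are at 1.39% in hid1, 0.357% in phyB and 1.17% in WT.

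The skew sets the scale of every fold change. TMM scaling, which is used throughout, discounts such dominant genes, whereas plain scaling by total counts does not. Under total counts the median of all genes stood at 0.73 on the log2 scale, against 0.06 under TMM, a shift of 0.67. The share of called genes that were higher in hid1 was then 77% in place of 52%, with 12729 genes higher (62.2%) and 3797 lower (18.6%). Of all genes tested, 1573 (7.69%) were called under both TMM and total counts, with opposite signs. Genes whose sign turned without a call under both scalings are not in this count. RLE scaling put 52.6% of called genes higher.

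HID1 itself was almost absent from hid1, which checks the label. The 3 hid1 libraries held 0, 1 and 0 counts of HID1, against 264, 319 and 306 counts in phyB and 243, 318 and 288 counts in WT. The ratio of phyB to hid1 was 1351 (95% counting interval 241.9 to 53433, counting error only). AT2G35750, annotated as a transmembrane protein at chr2:15029829-15030348 of TAIR10.1, went the same way, with 0, 1 and 0 counts in hid1 against 220, 254 and 238 in phyB. Whether the same reads entered both rows was not tested. PHYB transcripts were present in both mutants, at 147.3, 141.6 and 156.0 CPM (counts scaled to a TMM-corrected library of 1e+06 counts) in hid1, against 103.4, 115.8 and 117.3 CPM in phyB. The level was higher in hid1 by a log2 value of 0.40 ± 0.06 (SE; adjusted p = 6.74e-07), and since transcript can remain when the protein is lost, it does not check the phyB label.

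Among the other phytochrome genes, PHYD and PHYE, whose products are close relatives of phytochrome B, were lower in hid1. PHYD averaged 54.1 ± 0.842 CPM in hid1 and 188.2 ± 11.1 CPM in phyB (log2 -1.80 ± 0.08). PHYE averaged 63.5 ± 3.6 CPM in hid1 and 223.3 ± 23.1 CPM in phyB (log2 -1.81 ± 0.06). Both genes were lowest in WT, at 28.1 ± 0.636 and 36.1 ± 2.32 CPM. PHYA, the far-red sensor, was lower under TMM at -0.35 ± 0.07 and turned to 0.33 under total counts. PHYC did not pass the test (log2 -0.06).

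Of 17 genes for PIF and other light-signalling factors, 7 were higher, 7 lower and 3 not called (10 higher and 4 lower under total counts). These counts were near the shares over all genes tested, 41% higher and 37.9% lower. PIF1, the repressor that phytochrome B removes, stood at 99.2, 103.1 and 99.5 CPM in hid1, against 184.3, 182.1 and 218.1 CPM in phyB. The groups did not overlap, and PIF1 was lower in hid1 (log2 -0.95 ± 0.06, adjusted p = 1.45e-13; WT 74.0 ± 2.28 CPM). PIF6, a relative of PIF1, was also lower, at 192.1 ± 3.87 CPM in hid1 against 539.4 ± 34.9 CPM in phyB. SPT, a PIF relative that restrains germination of dormant seeds, was higher in hid1 at 31.2, 30.6 and 32.7 CPM, against 6.15, 5.12 and 5.22 CPM in phyB. The light-signalling repressor SPA2 was lower (log2 -1.04 ± 0.06).

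Genes of ABA synthesis were mostly lower in hid1 than in phyB. Of 10 genes, 7 were lower, 1 was higher and 2 did not pass the test, with a median log2 of -0.80 against 0.06 for all genes. Under total counts 5 were lower and 3 higher, with a median of -0.13, against 0.73 for all genes. The list fell below the middle of all genes under both scalings. In 8 of the 10 genes the mean level in hid1 lay between those of phyB and WT.

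ABA1, which encodes zeaxanthin epoxidase at the head of the pathway, stood at 114.7, 111.4 and 113.8 CPM in hid1, against 309.4, 318.4 and 330.3 CPM in phyB, and at 20.8 ± 3.34 CPM in WT. The difference was -1.49 ± 0.07 on the log2 scale (adjusted p = 1.86e-16), and against WT both mutants were raised, hid1 by 2.45 ± 0.08 and phyB by 3.95 ± 0.08. The NCED genes encode the enzymes that cleave a carotenoid into the ABA precursor. NCED9, a seed member of this family, stood at 3.9, 3.5 and 3.84 CPM in hid1, against 8.21, 7.83 and 7.87 CPM in phyB and 0.696 ± 0.0512 CPM in WT. It was lower in hid1 than in phyB (log2 -1.09 ± 0.12, adjusted p = 3.90e-09), though still 2.42 ± 0.17 above WT. NCED5 was lower, at 1.53, 1.12 and 1.3 CPM in hid1 against 4.44, 5.42 and 4.04 CPM in phyB (log2 -1.80 ± 0.23). NCED2 was lower too, but at under 1 CPM in every library (log2 -2.07 ± 0.46, adjusted p = 0.000221). NCED3 overlapped between the mutants and did not pass the test (log2 -0.34, adjusted p = 0.333).

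The direction of 4 synthesis genes turned with the scaling, among them NCED3, which was not called under either (0.33 under total counts). NCED6, which acts in the endosperm, was 6.13 ± 1.37 CPM in hid1 and 8.83 ± 0.669 CPM in phyB (log2 -0.52 ± 0.17, adjusted p = 0.00618), and 0.15 under total counts. Without hid1 replicate 3 its call ended (log2 -0.36, adjusted p = 0.0563). AAO3, the aldehyde oxidase of the last step, was at -0.45 ± 0.09 under TMM and 0.22 under total counts. ABA2, the dehydrogenase before it, was not called under TMM (log2 -0.29, adjusted p = 0.0764) and stood at 0.38 under total counts. ABA3, which matures the cofactor of AAO3, was lower under both, at 25.5 ± 2.26 CPM in hid1 against 55.9 ± 4.31 CPM in phyB (log2 -1.14 ± 0.08). ABA4, which takes part in neoxanthin synthesis, was the member that was higher, at 22.3, 22.7 and 26.8 CPM in hid1 against 8.34, 10.2 and 7.24 CPM in phyB (log2 1.48 ± 0.13).

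ABA breakdown went the other way for the hydroxylases and the same way for the glucosyltransferases. CYP707A1 stood at 56.7, 54 and 66 CPM in hid1, against 15, 17 and 14.4 CPM in phyB and 23.3 ± 0.815 CPM in WT (log2 1.93 ± 0.11, adjusted p = 8.37e-15). CYP707A3 stood at 16.5, 15 and 16.3 CPM in hid1, against 2.8, 2.94 and 1.67 CPM in phyB (log2 2.69 ± 0.20, adjusted p = 6.65e-13). CYP707A2, a hydroxylase that acts early in germination, was 17 ± 1.6 CPM in hid1 and 9.28 ± 0.742 CPM in phyB (log2 0.88 ± 0.12), both far above WT at 0.801 ± 0.342 CPM. All 3 hydroxylase genes tested were thus higher in hid1 than in phyB, and hid1 had the highest mean of the 3 genotypes in each. CYP707A4 had no count in any of the 9 libraries of this time. The glucosyltransferase gene UGT71C5, whose product stores ABA as a glucose ester, was lower in hid1 at 23.8 ± 1.83 CPM against 82.5 ± 1.61 CPM in phyB (log2 -1.79 ± 0.09). UGT71B6 was lower as well (log2 -2.45 ± 0.32).

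The 5 dormancy regulators were all lower in hid1 under TMM, total-count and RLE scaling, with a median log2 of -2.0. DOG1, a main determinant of dormancy depth, stood at 0.0848, 0.194 and 0.0498 CPM in hid1, against 3.62, 3.99 and 3.9 CPM in phyB (log2 -5.06 ± 0.48, adjusted p = 2.13e-10). In WT it was at 0.035 ± 0.0346 CPM, and hid1 did not differ from WT by the test (log2 1.38, adjusted p = 0.261). SOM, a zinc-finger repressor of germination below PIF1, stood at 474.6, 495.3 and 519.3 CPM in hid1, against 1189, 1247 and 1292 CPM in phyB and 53.7 ± 7.04 CPM in WT (log2 -1.32 ± 0.08). MFT, which relays ABA and GA signals in seeds, was 35.0 ± 5.17 CPM in hid1 and 143.6 ± 8.0 CPM in phyB (log2 -2.03 ± 0.12). RDO5, a phosphatase-like dormancy protein, was 60.5 ± 2.72 CPM in hid1 and 211.3 ± 2.02 CPM in phyB (log2 -1.80 ± 0.09). All 5 had their mean in hid1 between those of phyB and WT.

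**Figure D2:**
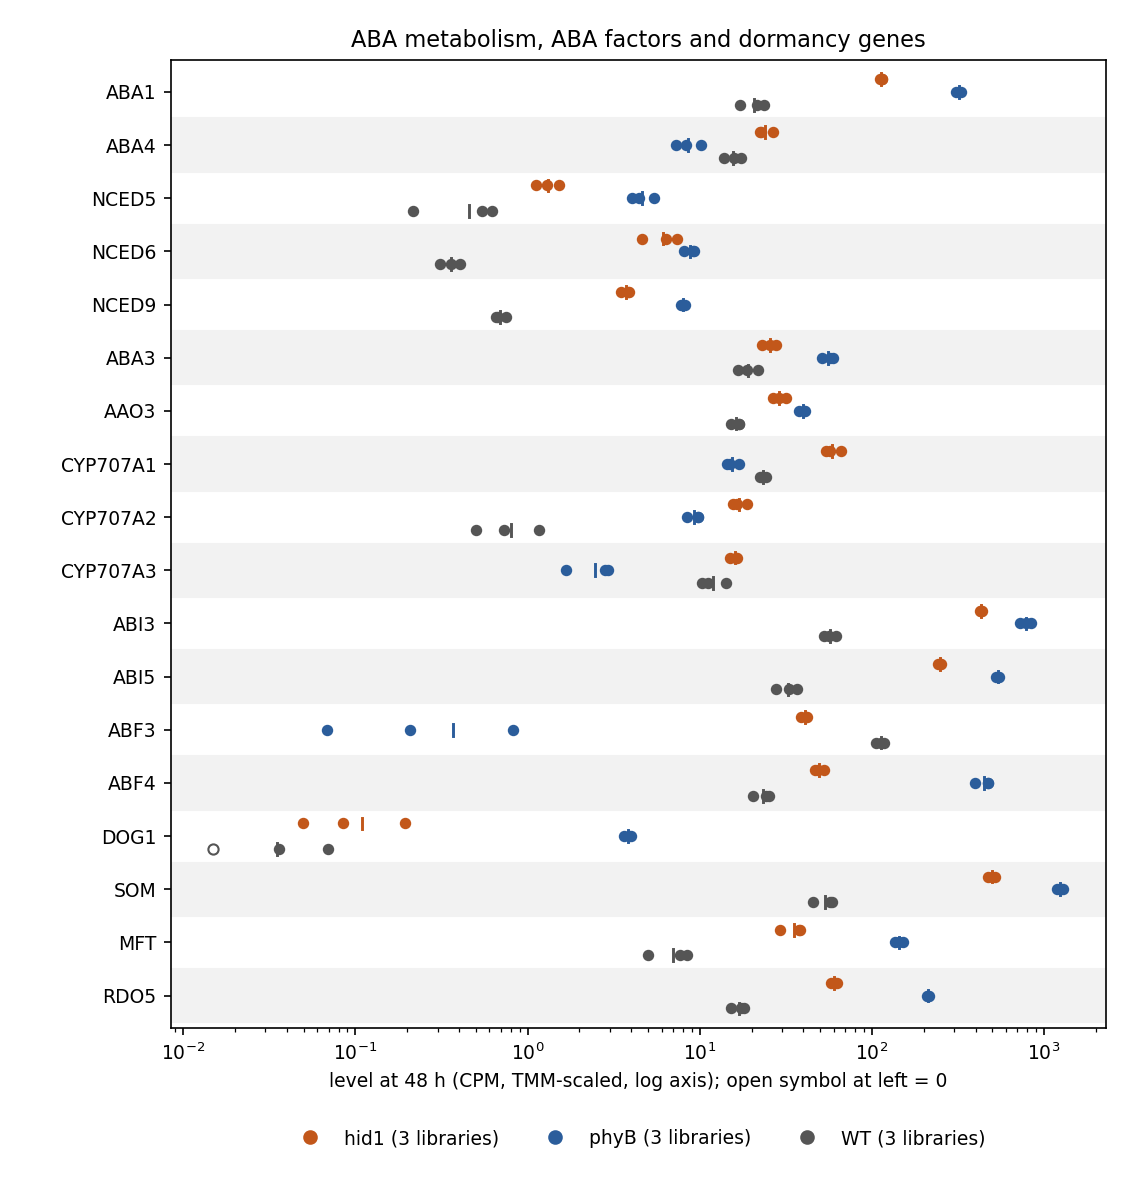
Levels at 48 h in CPM on a log axis for genes of ABA synthesis and breakdown, ABA transcription factors and dormancy regulators. Each point is 1 library (hid1 orange, phyB blue, WT grey), ticks are group means and the open symbol is a library at 0. In all 18 genes shown, the 3 hid1 libraries lie wholly on one side of the 3 phyB libraries. They lie above in ABA4, the 3 CYP707A genes and ABF3 and below in the others. Of all genes tested, 41.5% lay wholly above and 38.2% wholly below, and NCED3, which overlapped, is not shown.

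ABA perception and response genes split by their role. Of the 9 receptor genes 6 were higher in hid1 and 3 were lower (median 1.43; PYL5, among the lower ones at -0.52, turned to 0.15 under total counts). PYL8 stood at 22.1, 23.8 and 23.2 CPM in hid1, against 5.81, 4.67 and 5.36 CPM in phyB (log2 2.12 ± 0.08). PYL4 was higher by 2.42 ± 0.12 and PYR1 by 1.43 ± 0.11, whereas PYL7 was lower (-2.13 ± 0.19). The clade A phosphatases, which block ABA signalling until a receptor binds them and whose genes ABA induces, were lower in 8 of 9 cases under all 3 scalings (median -1.37). HAI2 stood at 46.7, 43 and 41.2 CPM in hid1, against 214.7, 197.1 and 215.2 CPM in phyB (log2 -2.26 ± 0.07, adjusted p = 4.80e-20). AHG1, which restrains ABA responses in seeds, was 114.2 ± 1.86 CPM in hid1, 275.5 ± 11.8 CPM in phyB and 9.48 ± 0.744 CPM in WT. Of the 3 kinases that carry the signal, OST1 was higher at 14.2, 14.6 and 16.8 CPM in hid1 against 2.8, 3.54 and 2.92 CPM in phyB. SNRK2.2 and SNRK2.3 were slightly lower (log2 -0.21 and -0.46), with the sign turned under total counts (0.46 and 0.22).

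Of the 10 ABA and maturation transcription factors tested, of 13 listed, 7 were lower and 3 higher (median -1.0; 6 lower and 3 higher under total counts). ABI3, which holds the maturation programme on, stood at 423.5, 429.1 and 435.6 CPM in hid1, against 727.3, 788.8 and 840.4 CPM in phyB and 56.8 ± 4.56 CPM in WT (log2 -0.87 ± 0.07, -0.20 under total counts). ABI5, the bZIP factor that arrests growth under ABA, stood at 251.1, 247.8 and 241.4 CPM in hid1, against 541.9, 522.6 and 546.0 CPM in phyB and 32.4 ± 4.36 CPM in WT (log2 -1.12 ± 0.07). Both factors were thus well above WT in both mutants, with hid1 nearer to phyB than to WT on the log2 scale (ABI3 2.92 ± 0.08 and ABI5 2.93 ± 0.07 above WT in hid1). FUS3, a further maturation factor, was 2.25 ± 0.185 CPM in hid1 and 23.0 ± 3.0 CPM in phyB (log2 -3.35 ± 0.18).

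A pair of related bZIP factors that bind ABA response elements moved in opposite directions. ABF3 stood at 41.9, 41.2 and 38.9 CPM in hid1, against 0.0684, 0.828 and 0.209 CPM in phyB and 112.2 ± 6.76 CPM in WT (log2 6.81 ± 0.27, adjusted p = 1.67e-18). ABF4 stood at 48.9, 52.8 and 46.4 CPM in hid1, against 395.3, 470.0 and 474.1 CPM in phyB and 23.3 ± 2.64 CPM in WT (log2 -3.18 ± 0.08, adjusted p = 2.33e-22). For both genes hid1 lay between phyB and WT, on opposite slopes.

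GA synthesis genes went both ways. Of 10 genes 5 were higher in hid1, 4 lower and 1 not called (8 higher and 1 lower under total counts). These counts were near the shares over all genes tested, 41% higher and 37.9% lower. The list median was 0.47, against 0.06 for all genes. Of the 5 oxidases of the last steps, 4 were higher and GA20OX3, the one with the highest counts, was not called. GA3OX1, which makes active GA, stood at 2.76, 3.01 and 1.69 CPM in hid1, against 0.137, 0.0753 and 0.0696 CPM in phyB and 15.6 ± 1.83 CPM in WT (log2 4.63 ± 0.55, adjusted p = 1.39e-08). Against WT, hid1 stood at a log2 value of -2.64 ± 0.19 and phyB at -7.27 ± 0.38, both past the test. GA3OX2 reached 0.54 ± 0.0998 CPM in hid1 and 0.0502 ± 0.0869 CPM in phyB, a ratio of 11.5 (95% counting interval 2.96 to 98.8), against 6.9 ± 1.29 CPM in WT. GA20OX2 was 9.37, 10.8 and 12.1 CPM in hid1, against 1.16, 1.66 and 1.25 CPM in phyB (log2 2.98 ± 0.31), and GA20OX1 was higher by 2.61 ± 0.29. GA20OX3 averaged 197.2 ± 14.7 CPM in hid1 and 223.0 ± 9.63 CPM in phyB (log2 -0.18, adjusted p = 0.474; 0.50 under total counts). Of the 5 earlier steps, CPS, the first, was higher by 1.12 ± 0.28 and the other four were lower, of which KS, KAO1 and KAO2 turned in sign under total counts (0.04, 0.46 and 0.32). KO, the exception to that turn, was lower in hid1 at 113.8 ± 2.77 CPM against 250.5 ± 5.04 CPM in phyB (log2 -1.14 ± 0.07).

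GA2OX2, which inactivates GA, was higher in hid1 than in either other genotype, at 57.2, 52.3 and 49.7 CPM, against 11.1, 8.88 and 11.2 CPM in phyB and 2.27 ± 0.294 CPM in WT (log2 2.35 ± 0.10 over phyB). Of 9 receptor and DELLA pathway genes 5 were higher in hid1, 2 lower and 2 not called, beside 41% higher and 37.9% lower of all genes. The receptor genes GID1A and GID1C were lower, GID1B was higher (log2 4.16 ± 0.41), and GID1A stood at 46.6, 49.5 and 49.6 CPM in hid1, against 215.1, 223.3 and 243.8 CPM in phyB (log2 -2.23 ± 0.07). RGL2, the DELLA protein that restrains germination, was higher at 226.5, 218.8 and 221.8 CPM in hid1 against 99.4, 93.9 and 93.6 CPM in phyB (log2 1.22 ± 0.07), and 56.7 ± 3.22 CPM in WT. Its relative RGL3 was higher by 1.21 ± 0.08.

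The GASA genes, small peptides known as GA-regulated, parted into 2 classes, 4 higher and 2 lower of 6 under all 3 scalings. GASA1 stood at 36.2, 33.8 and 28.6 CPM in hid1, against 0.342, 0.979 and 0.418 CPM in phyB and 57.3 ± 12.3 CPM in WT (log2 5.84 ± 0.30). GASA14 was higher by 3.67 ± 0.17. GASA2 stood at 26.2, 31.4 and 18.9 CPM in hid1, against 810.4, 637.2 and 747.9 CPM in phyB and 4.08 ± 1.58 CPM in WT (log2 -4.84 ± 0.20). GASA3 was lower as well (log2 -2.58 ± 0.13).

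Maturation transcripts held the largest shift in mass. Of the 15 storage and oil body genes, 12 were lower in hid1, 1 was higher and 2 did not pass the test (median -2.84; 11 lower and 3 higher with a median of -2.17 under total counts). CRA1 stood at 28593, 32939 and 25661 CPM in hid1, against 177236, 165886 and 191043 CPM in phyB and 5287 ± 1412 CPM in WT (log2 -2.62 ± 0.18, adjusted p = 3.07e-13). OLEO1, the coat protein of oil bodies, stood at 739.5, 780.1 and 560.5 CPM in hid1, against 5582, 4390 and 4930 CPM in phyB and 93.0 ± 25.1 CPM in WT (log2 -2.84 ± 0.15, adjusted p = 1.04e-15). PAP85, a vicilin-like storage protein, stood at 1077, 1365 and 1017 CPM in hid1, against 11358, 10535 and 11961 CPM in phyB. No library of one mutant reached the range of the other in these genes, and in 13 of the 15 the hid1 mean lay between those of phyB and WT. In the authors' deposited table of mean FPKM, which corrects for transcript length, CRA1 was the most abundant transcript of both mutants, at 18172 in hid1, 72797 in phyB and 3463 in WT.

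Genes for late embryogenesis abundant (LEA) proteins, which protect drying tissue, were lower in 17 of 19 cases, with none higher and 2 not called (median -1.73; 13 lower and 2 higher with a median of -1.06 under total counts). ECP31 stood at 336.7, 412.4 and 277.3 CPM in hid1, against 4582, 3987 and 4367 CPM in phyB (log2 -3.66 ± 0.16). M17 stood at 2593, 2739 and 2196 CPM in hid1, against 26033, 22144 and 21590 CPM in phyB (log2 -3.21 ± 0.18). M10 stood at 80.4, 69.6 and 72.3 CPM in hid1, against 696.7, 551.1 and 520.6 CPM in phyB (log2 -2.99 ± 0.13). All 19 genes were nonetheless above WT in hid1 by the test (median 3.72), as they were in phyB (median 5.18).

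The promoters of these groups carry letters that seed transcription factors are known to read. The RY element, CATGCA, is bound by ABI3 and FUS3, and the G-box, CACGTG, and the ABA response element core, ACGTGNC, by bZIP and bHLH factors such as ABI5 and PIF1. In the 250 bases before the gene start (RefSeq annotation of TAIR10.1, both strands), RY was present in 14 of 15 storage and oil body genes (93.3%), against 7.78% of 19587 tested genes. The ABA response element core was present in 16 of 19 LEA genes (84.2%), against 9.75% of tested genes, and the G-box, which can overlap it, in 14 (73.7%), against 7.53%. Of genes at least 2-fold lower in hid1, 13.8% held the ABA response element core, and of those at least 2-fold higher 9.02%. These groups were listed for their known function, so the shares describe the groups and say nothing about binding in these seeds.

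The following 4 promoters show the arrangement in a storage protein gene, an oil body gene, a LEA gene and, in contrast, the expansin gene EXPA2, which was higher in hid1. Each is written 5′ to 3′ on the strand of the gene and ends at the base before the gene start, and capitals mark every match to the RY element, G-box or ABA response element core on either strand (RY reads TGCATG when on the other strand). CRA1 lies at chr5:17758337-17758586 on the minus strand, OLEO1 at chr4:12900180-12900429, M10 at chr2:17209447-17209696 and EXPA2 at chr5:1568444-1568693, the last 3 on the plus strand of TAIR10.1.
CRA1: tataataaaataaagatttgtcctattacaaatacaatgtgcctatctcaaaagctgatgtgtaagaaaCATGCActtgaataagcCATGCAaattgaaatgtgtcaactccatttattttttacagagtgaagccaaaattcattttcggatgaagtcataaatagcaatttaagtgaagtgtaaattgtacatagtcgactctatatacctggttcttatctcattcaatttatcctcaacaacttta
OLEO1: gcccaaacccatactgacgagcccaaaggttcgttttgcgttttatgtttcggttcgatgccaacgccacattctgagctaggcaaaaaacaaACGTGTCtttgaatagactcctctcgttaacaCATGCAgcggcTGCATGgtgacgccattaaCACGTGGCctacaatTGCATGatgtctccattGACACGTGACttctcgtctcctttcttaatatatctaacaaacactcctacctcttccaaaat
M10: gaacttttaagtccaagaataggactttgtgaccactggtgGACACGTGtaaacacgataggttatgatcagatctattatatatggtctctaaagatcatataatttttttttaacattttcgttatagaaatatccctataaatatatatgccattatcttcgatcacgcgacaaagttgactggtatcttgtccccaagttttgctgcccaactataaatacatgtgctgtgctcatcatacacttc
EXPA2: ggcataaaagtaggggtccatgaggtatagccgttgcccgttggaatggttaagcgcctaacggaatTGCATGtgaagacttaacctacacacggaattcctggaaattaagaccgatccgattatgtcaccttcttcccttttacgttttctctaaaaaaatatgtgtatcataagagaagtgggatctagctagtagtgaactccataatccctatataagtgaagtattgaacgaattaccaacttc
CRA1 holds 2 RY elements, 181 and 164 bases before the gene start, and no G-box. OLEO1 holds 3 RY elements and 4 ABA response element cores, of which 3 overlap its 2 G-boxes. M10 holds 1 G-box, 207 bases before the start, that overlaps an ABA response element core. EXPA2 holds 1 RY element, 183 bases before the start, and neither of the other motifs. Across the cell wall list to which EXPA2 belongs, 0 of 22 promoters held a G-box and 1 an ABA response element core.

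Heat shock genes, several of which are part of the seed maturation programme, gave the lowest median of the 32 lists, at -4.20. Of 17 genes 16 were lower in hid1 and 1 was not called, under all 3 scalings. HSFA9, the heat shock factor of seeds, stood at 3.9, 4.9 and 2.19 CPM in hid1, against 113.0, 102.2 and 112.1 CPM in phyB and 0.872 ± 0.264 CPM in WT (log2 -4.89 ± 0.15, adjusted p = 1.91e-20). The small heat shock gene HSP17.6A averaged 22.7 ± 6.06 CPM in hid1, 1508 ± 232.7 CPM in phyB and 8.55 ± 1.31 CPM in WT (log2 -6.06 ± 0.35). HSP90.1, a chaperone, stood at 19.6, 24.5 and 20.2 CPM in hid1, against 465.9, 413.1 and 510.8 CPM in phyB (log2 -4.44 ± 0.20). Unlike the storage list, the heat shock list was close to WT in hid1, with 7 genes higher and 2 lower than WT and a median of 0.23, against 4.61 in phyB. Small heat shock genes are alike in sequence, and the values of single members are uncertain where reads match several of them.

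Raffinose family sugars accumulate in seeds as they dry. The galactinol synthase gene GOLS2 stood at 23.9, 27.5 and 23.7 CPM in hid1, against 208.4, 204.2 and 219.9 CPM in phyB (log2 -3.07 ± 0.09). GOLS1 and the stachyose synthase gene STS were lower as well (log2 -3.28 ± 0.10 and -2.83 ± 0.15). RS5, a raffinose synthase gene, was higher (log2 2.39 ± 0.20), so that 3 of the 4 genes tested fell and 1 rose. The vacuolar water channel genes of seeds went with them, TIP3;1 at 298.8, 332.8 and 245.8 CPM in hid1 against 2565, 2111 and 2344 CPM in phyB (log2 -3.00 ± 0.15).

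Genes that loosen the cell wall were almost all higher in hid1. Of 22 tested, 19 were higher, 1 lower and 2 not called (median 3.93; 21 higher and none lower under total counts). EXPA2, an expansin of the germinating endosperm, stood at 434.6, 398.0 and 429.4 CPM in hid1, against 0.342, 0.753 and 0.348 CPM in phyB (log2 9.78 ± 0.29, adjusted p = 6.32e-21). In WT it was 122.1 ± 45.5 CPM, so that hid1 exceeded WT as well, by 1.78 ± 0.15 (adjusted p = 4.04e-11). EXPA9 stood at 356.0, 336.6 and 362.5 CPM in hid1, against 2.12, 2.11 and 1.53 CPM in phyB (log2 7.51 ± 0.16) and 414.5 ± 63.6 CPM in WT. XTH31, which remodels xyloglucan, stood at 278.0, 273.9 and 299.7 CPM in hid1, against 0.41, 0.753 and 0.279 CPM in phyB (log2 9.21 ± 0.34) and 250.4 ± 20.6 CPM in WT. XTH33, of the same family, was 36.6 ± 1.25 CPM in hid1 and 0.0479 ± 0.0416 CPM in phyB, a ratio of 772.0 (95% counting interval 213.5 to 6379). EXPA15 was higher by 4.90 ± 0.12. Over the list as a whole, hid1 was lower than WT in 11 of 22 genes and higher in 7 (median -0.39), against 21 lower and 1 higher in phyB (median -4.23). The 1 member lower in hid1 than in phyB was not called without hid1 replicate 3.

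Root hair and extensin genes, which mark a root that has emerged, were far below WT in both mutants. All 14 were lower in hid1 than in WT (median -8.23) and in phyB than in WT (median -9.96). Between the mutants, 6 of 14 were higher in hid1 and 8 did not pass the test (median 2.68, bounded median 1.48). In the bounded median, a group without any count of a gene enters at the floor of 3 counts. A group with few counts, at most 3, enters with the plain ratio of the counts. Genes with at most 3 counts in both groups are left out of it. EXT3 stood at 138.1, 135.2 and 117.6 CPM in hid1, against 2.39, 2.94 and 2.09 CPM in phyB and 876.1 ± 131.1 CPM in WT (log2 5.72 ± 0.28). EXT6 overlapped, at 0.509, 3.5 and 0.0997 CPM in hid1 against 0.137, 0.151 and 0.279 CPM in phyB, far below WT at 407.4 ± 80.1 CPM. Its call (log2 2.78 ± 1.07, adjusted p = 0.0218) rested on hid1 replicate 2, without which it stood at 0.74 (adjusted p = 0.49), and also ended without phyB replicate 1 or 2 (adjusted p = 0.066 and 0.0575) and with DESeq2. The count of 6 was 3 without hid1 replicate 2, without phyB replicate 1 or without phyB replicate 2, and 10 without hid1 replicate 3.

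**Figure D3:**
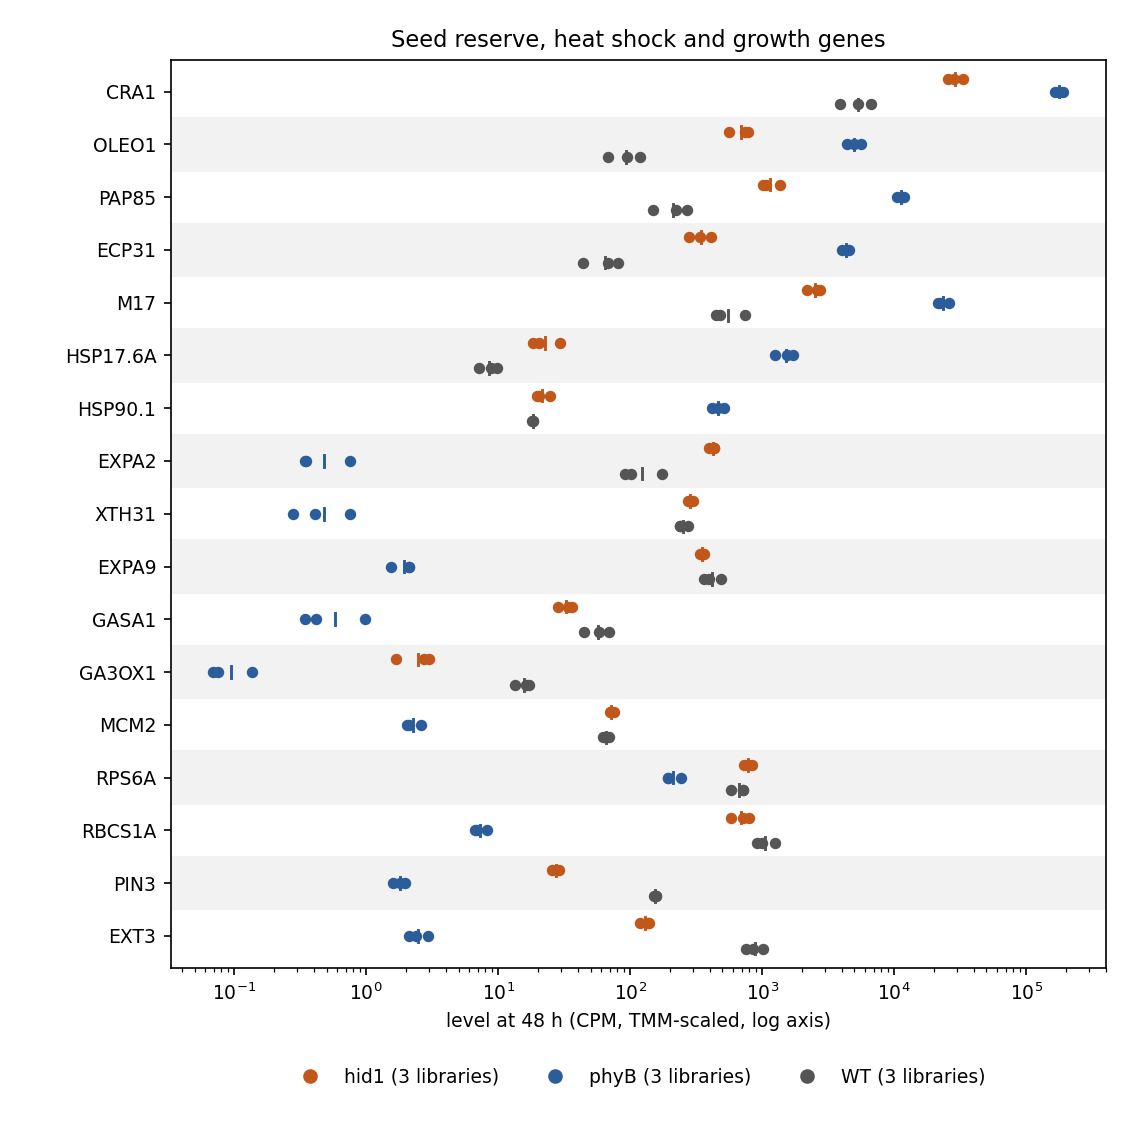
Levels at 48 h in CPM on a log axis for reserve, heat shock and growth genes, with 1 point per library (hid1 orange, phyB blue, WT grey) and ticks at group means. hid1 lies below phyB from CRA1 to HSP90.1 and above it from EXPA2 to EXT3, and its levels meet or exceed those of WT in EXPA2, XTH31, MCM2 and RPS6A but stay below them in GA3OX1, PIN3 and EXT3.

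Genes that turn stored oil into sugar were mostly higher in hid1, by smaller steps. Of 19 genes 14 were higher, 2 lower and 3 not called (median 0.74; 17 higher and none lower under total counts). MFP2, an enzyme of fatty acid breakdown, stood at 1606, 1557 and 1707 CPM in hid1, against 636.9, 609.2 and 571.0 CPM in phyB and 1756 ± 15.3 CPM in WT (log2 1.42 ± 0.07). PMDH1 and PMDH2 encode the peroxisomal malate dehydrogenases. PMDH2 stood at 39.1, 36.1 and 37.5 CPM in hid1, against 0.821, 0.527 and 0.209 CPM in phyB (log2 6.16 ± 0.21), while PMDH1 differed by 1.5 ± 0.06. This list took 3.11 ± 0.145% of counts in hid1, 1.05 ± 0.0451% in phyB and 3.33 ± 0.277% in WT.

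Cell cycle genes were higher in hid1 almost throughout, 39 of 40 with 1 lower, which was not called without phyB replicate 3 (median 3.83 and bounded median 3.71; 39 higher and none lower under total counts). MCM2, a subunit of the helicase that opens DNA for replication, stood at 70, 70.9 and 75 CPM in hid1, against 2.6, 2.11 and 2.02 CPM in phyB (log2 5.00 ± 0.13, adjusted p = 3.73e-22). In WT it was 65.3 ± 3.66 CPM, and hid1 did not differ from WT by the test (log2 0.14, adjusted p = 0.103). The other named subunits MCM3, MCM4 and MCM5 were higher by 4.85 ± 0.13, 3.64 ± 0.10 and 3.78 ± 0.09. Over the list as a whole, 31 of 40 genes were lower in hid1 than in WT and 4 higher (median -0.76), against 37 lower and 2 higher in phyB (median -4.88).

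The 19 cytosolic ribosomal protein genes chosen for the list gave the most even result. All 19 were higher in hid1 than in phyB under all 3 scalings (median 1.21), with RPS6A at 838.9, 781.9 and 722.9 CPM in hid1, against 241.5, 193.9 and 194.1 CPM in phyB and 669.1 ± 74.7 CPM in WT (log2 1.90 ± 0.10). RPL23AA and RPL23AB, closely related copies between which reads may have been split, were higher by 1.79 ± 0.09 and 1.62 ± 0.07. hid1 exceeded WT as well, in 17 of 19 genes (median 0.25), whereas phyB lay below WT in 19 of 19 (median -0.99).

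Genes of greening were higher in hid1 than in phyB although all seeds were kept dark. Of 28 photosystem, antenna and Rubisco genes tested, 19 were higher, 2 lower and 7 not called (median 2.08). The bounded median, which leaves out 2 genes, was 2.54. RBCS1A, a small subunit of Rubisco, stood at 793.9, 715.3 and 575.3 CPM in hid1, against 8.21, 6.85 and 6.68 CPM in phyB and 1047 ± 177.0 CPM in WT (log2 6.58 ± 0.20). PSBQA, of photosystem II, was higher by 6.45 ± 0.28. LHCB4.1, an antenna protein gene, was one of the 2 lower members, at 57.6, 59.4 and 52.6 CPM in hid1 against 146.0, 149.2 and 155.3 CPM in phyB (log2 -1.41 ± 0.08). Of 15 chlorophyll synthesis genes 13 were higher, 1 lower and 1 not called (median 2.22; 2 lower without phyB replicate 1). CHLI1, a subunit of magnesium chelatase, stood at 70.3, 69.4 and 62.7 CPM in hid1, against 1.98, 2.94 and 1.18 CPM in phyB and 162.9 ± 19.1 CPM in WT (log2 5.06 ± 0.17). Both lists stayed below WT in hid1, with 27 of 28 and 14 of 15 genes lower. Reads of the Rubisco genes may be shared among copies.

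Auxin genes followed, with 15 of 19 tested higher, 2 lower and 2 not called (median 2.55 and bounded median 2.35). PIN3, which exports auxin from cells, stood at 28.9, 28.1 and 25.6 CPM in hid1, against 1.98, 1.81 and 1.6 CPM in phyB and 155.1 ± 4.2 CPM in WT (log2 3.93 ± 0.12). The carriers AUX1 and PIN2 were higher by 4.09 ± 0.14 and 5.22 ± 0.21. Here hid1 stayed further from WT, with 18 of 19 genes lower than WT (median -2.49). Among the 15 aquaporin genes 8 were higher, 3 lower and 4 not called, beside 41% higher and 37.9% lower of all genes. PIP2;7, a channel of the plasma membrane, stood at 112.1, 105.5 and 96.8 CPM in hid1, against 8.27, 7.23 and 6.82 CPM in phyB and 598.4 ± 77.5 CPM in WT.

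Clock genes were lower in 10 of 13 cases, with 2 higher and 1 not called (median -1.21; 8 lower and 4 higher under total counts). Only 1 was higher without hid1 replicate 2 or 3 or without phyB replicate 1 or 2. RVE8, a morning activator of the clock, stood at 24.8, 27.5 and 25 CPM in hid1, against 137.1, 153.6 and 156.9 CPM in phyB and 5.06 ± 0.761 CPM in WT (log2 -2.53 ± 0.08). TOC1 and PRR3, of the evening loop, were lower too (log2 -1.57 ± 0.06 and -1.96 ± 0.08). A single time point of the day was sampled at 48 h, so level and phase cannot be told apart.

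Genes for enzymes that methylate histone H3K4, a mark of active genes, were listed with JMJ20 and JMJ22, histone demethylases that act in germination under phytochrome B. Of these 9 genes, 7 were lower and 2 higher (median -0.66). This direction did not survive the scaling, since 1 was lower and 4 higher under total counts (median 0.01). JMJ22 was higher under both, at 40.3 ± 1.28 CPM in hid1 and 18.9 ± 1.6 CPM in phyB (log2 1.09 ± 0.06), and so was ATX1 (log2 0.88 ± 0.09). ATX2 was lower (log2 -0.88 ± 0.07, and -0.20 under total counts), and ATX5 lost its call under total counts (log2 -0.03).

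**Figure D4:**
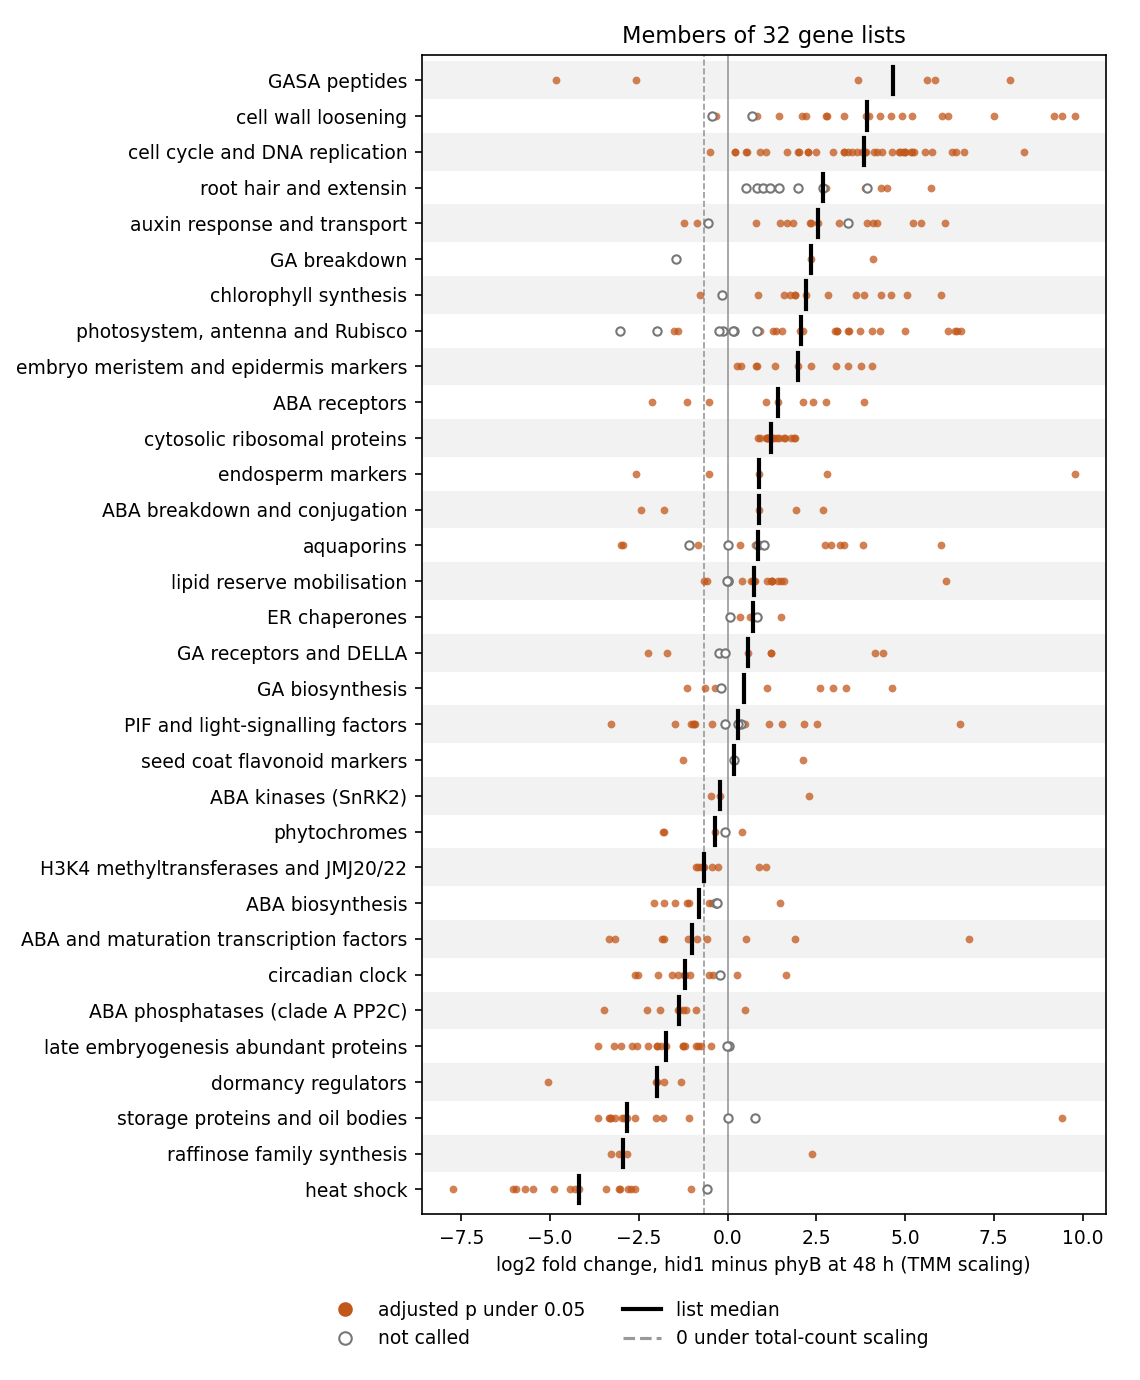
Log2 fold change of hid1 minus phyB at 48 h for each tested member of the 32 gene lists, ordered by list median (black bars). Filled points passed the test, open points did not, and the dashed line marks where 0 falls under total-count scaling. Heat shock, raffinose, storage, dormancy and LEA genes lie to the left, and GASA, cell wall and cell cycle genes to the right.

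Marker genes of the seed parts were checked against the label, which gives seeds as the tissue. Embryo meristem and epidermis markers were higher in hid1 in all 11 cases tested under all 3 scalings (median 1.97). PDF1, of the epidermis, stood at 428.6, 403.8 and 343.3 CPM in hid1, against 30.5, 27.6 and 29.2 CPM in phyB and 1105 ± 213.6 CPM in WT. The root patterning gene SHR was higher by 4.08 ± 0.24. Endosperm markers went both ways, 3 higher and 2 lower of 5 tested (1 lower without hid1 replicate 3). Over all genes tested 41% were higher and 37.9% lower. MAN7, a mannanase, stood at 146.2, 130.7 and 142.8 CPM in hid1, against 19.4, 19.7 and 21.9 CPM in phyB (log2 2.79 ± 0.12). EPR1, an extensin-like protein of the endosperm, stood at 2481, 2520 and 2635 CPM in hid1, against 15078, 14188 and 16658 CPM in phyB and 678.8 ± 39.8 CPM in WT (log2 -2.59 ± 0.19). Of 10 seed coat flavonoid markers 3 were tested, with 1 higher, 1 lower and 1 not called (2 higher under RLE scaling and without hid1 replicate 3 or phyB replicate 2). A change in the proportion of the tissues was not tested.

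The largest single changes lay mostly outside the lists. AT2G01021, annotated as a hypothetical protein at chr2:6571-6672 of TAIR10.1, held 771, 645 and 1446 counts in hid1, against 0 counts in all 3 phyB libraries. It was at least 627.6-fold higher in hid1 (floor of 3 counts over the group). The hid1 libraries were uneven, at 32.7, 31.3 and 72.1 CPM. WT held 1375, 797 and 816 counts of it. UMAMIT12, of a transporter family, stood at 27.7, 28.1 and 30.1 CPM in hid1, against 0, 0 and 0.0696 CPM in phyB, a ratio of 1208 (95% counting interval 216.5 to 47734). AGAL2, an alpha-galactosidase gene, averaged 73.9 ± 6.06 CPM in hid1 and 0.0981 ± 0.116 CPM in phyB (log2 9.51 ± 0.28). OCT1, an organic cation and carnitine transporter, stood at 114.6, 115.9 and 143.3 CPM in hid1, against 0.205, 0.452 and 0.209 CPM in phyB, and at 10.9 ± 1.76 CPM in WT, so that it was highest in hid1. SCPL9 and CYP96A3 were higher by ratios of 976.3 (175.0 to 38588) and 816.4 (146.3 to 32273).

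Among the largest falls, AT1G17990 and ATP1 were raised in phyB and low in both hid1 and WT. AT1G17990, of the FMN-linked oxidoreductases, held 2, 1 and 2 counts in hid1, against 579, 583 and 583 counts in phyB and 8, 13 and 6 counts in WT (log2 -8.94 ± 0.26). The mitochondrial gene ATP1 held 6, 5 and 2 counts in hid1, against 284, 298 and 348 counts in phyB and 5, 6 and 6 counts in WT. ATP1 did not move with its genome, which took 0.144 ± 0.0382% of counts in hid1, 0.115 ± 0.0173% in phyB and 0.173 ± 0.0577% in WT. The small heat shock gene HSP17.4 stood at 12.9, 16.5 and 11.8 CPM in hid1, against 1030, 682.4 and 878.0 CPM in phyB.

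The difference between the mutants was partly present at 12 h and 24 h. The phyB libraries labelled 12 h had 0.0178 to 0.0202% mitochondrial counts, against 0.0764 to 0.16% in the hid1 and WT libraries of 12 h and 0.0151 to 0.028% in those of 24 h. The phyB libraries labelled 24 h had 0.0195 to 0.0246%, so neither early phyB group lay in the range of the other 12 h libraries, and exchanging their labels would not change that. The mean of both early differences is used, which does not depend on which phyB group is which. Opposite differences at 12 h and 24 h cancel in this mean. In that mean 13956 genes (68.2%) passed the test, 7172 higher (35%) and 6784 lower (33.1%), with 12.1% at least 2-fold higher and 7.21% at least 2-fold lower. The change between the early mean and 48 h passed the test in 13427 genes (65.6%; 31.8% upward and 33.8% downward). Of these, 2147 genes (10.5% of those tested) were called in opposite directions early and at 48 h, 1100 of them higher and 1047 lower in hid1 at 48 h. For 1583 genes (7.74%) at least 1 early group of a mutant had 0 counts, so that the fitted early value and its change have no firm size. No early value or change of a single one of these genes is quoted.

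Storage genes were not lower in hid1 in the early mean. Of 15, 8 were higher and 5 lower in the early mean (median 0.34), against 1 and 12 at 48 h, and the change was downward in 14. CRA1 was at 0.38 ± 0.12 in the early mean and changed by -2.99 ± 0.22 (adjusted p = 2.15e-12). By the labels, OLEO1, OLEO4, PAP85 and CLO1 had higher means in hid1 at 12 h and lower ones at 24 h. OLEO1 averaged 3462 ± 544.2 CPM in hid1 and 1470 ± 57.9 CPM in phyB at 12 h. At 24 h it averaged 1042 ± 63.6 and 4211 ± 240.6 CPM. The difference at each early time was not tested. Dormancy regulators and LEA genes were lower in the early mean, 5 of 5 and 16 of 19 (medians -0.80 and -0.48), and heat shock genes in 14 of 17 (median -1.86). The LEA genes ECP31, M17 and M10 nonetheless had higher means in hid1 at 12 h and lower ones at 24 h. So did MFT, AT4G18650 and HSFA9, whereas DOG1, SOM, RDO5, HSP17.6A, HSP17.4 and HSP90.1 were lower at both times. ECP31 averaged 1359 ± 76.3 CPM in hid1 and 668.3 ± 7.92 CPM in phyB at 12 h, and 328.2 ± 33.7 and 2081 ± 248.1 CPM at 24 h. Embryo markers were higher in 11 of 11 early (median 1.67) and ribosomal protein genes in 19 of 19 (median 0.61).

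Several regulators turned over between the early mean and 48 h. PIF1 was higher in hid1 early (log2 0.94 ± 0.05) and lower at 48 h, a change of -1.89 ± 0.08 (adjusted p = 3.02e-17). The ABA hydroxylase gene CYP707A1 was lower early (-0.72 ± 0.19) and higher at 48 h, a change of 2.65 ± 0.23 (adjusted p = 6.95e-11). CYP707A3 was at -0.41 in the early mean and 2.69 at 48 h. It averaged 1.51 ± 0.421 CPM in hid1 and 3.05 ± 0.655 CPM in phyB at 12 h, but 5.25 ± 0.103 and 4.65 ± 0.482 CPM at 24 h. NCED9 did not pass the test in the early mean (log2 -0.01, adjusted p = 0.987) and changed by -1.08 ± 0.14 (adjusted p = 1.67e-07). ABA1 was at -0.16 in the early mean and changed by -1.34 ± 0.09. Both genes had higher means in hid1 at 12 h and lower ones at 24 h. ABA1 averaged 147.2 ± 1.68 CPM in hid1 and 80.9 ± 1.24 CPM in phyB at 12 h, and 72.1 ± 0.898 and 163.4 ± 9.23 CPM at 24 h. The chaperone genes of the endoplasmic reticulum were lower in the early mean in 6 of 6 cases (median -0.70), while at 48 h 4 were higher and 2 not called (median 0.72). Among them SHD stood at 410.4, 408.4 and 395.1 CPM in hid1, against 144.5, 145.9 and 134.5 CPM in phyB at 48 h (log2 1.51 ± 0.07), after -0.60 in the early mean. SHD averaged 167.5 ± 5.76 CPM in hid1 and 491.8 ± 25.2 CPM in phyB at 12 h. At 24 h its mean was already higher in hid1, at 441.3 ± 7.88 CPM against 344.4 ± 9.4 CPM.

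**Figure D5:**
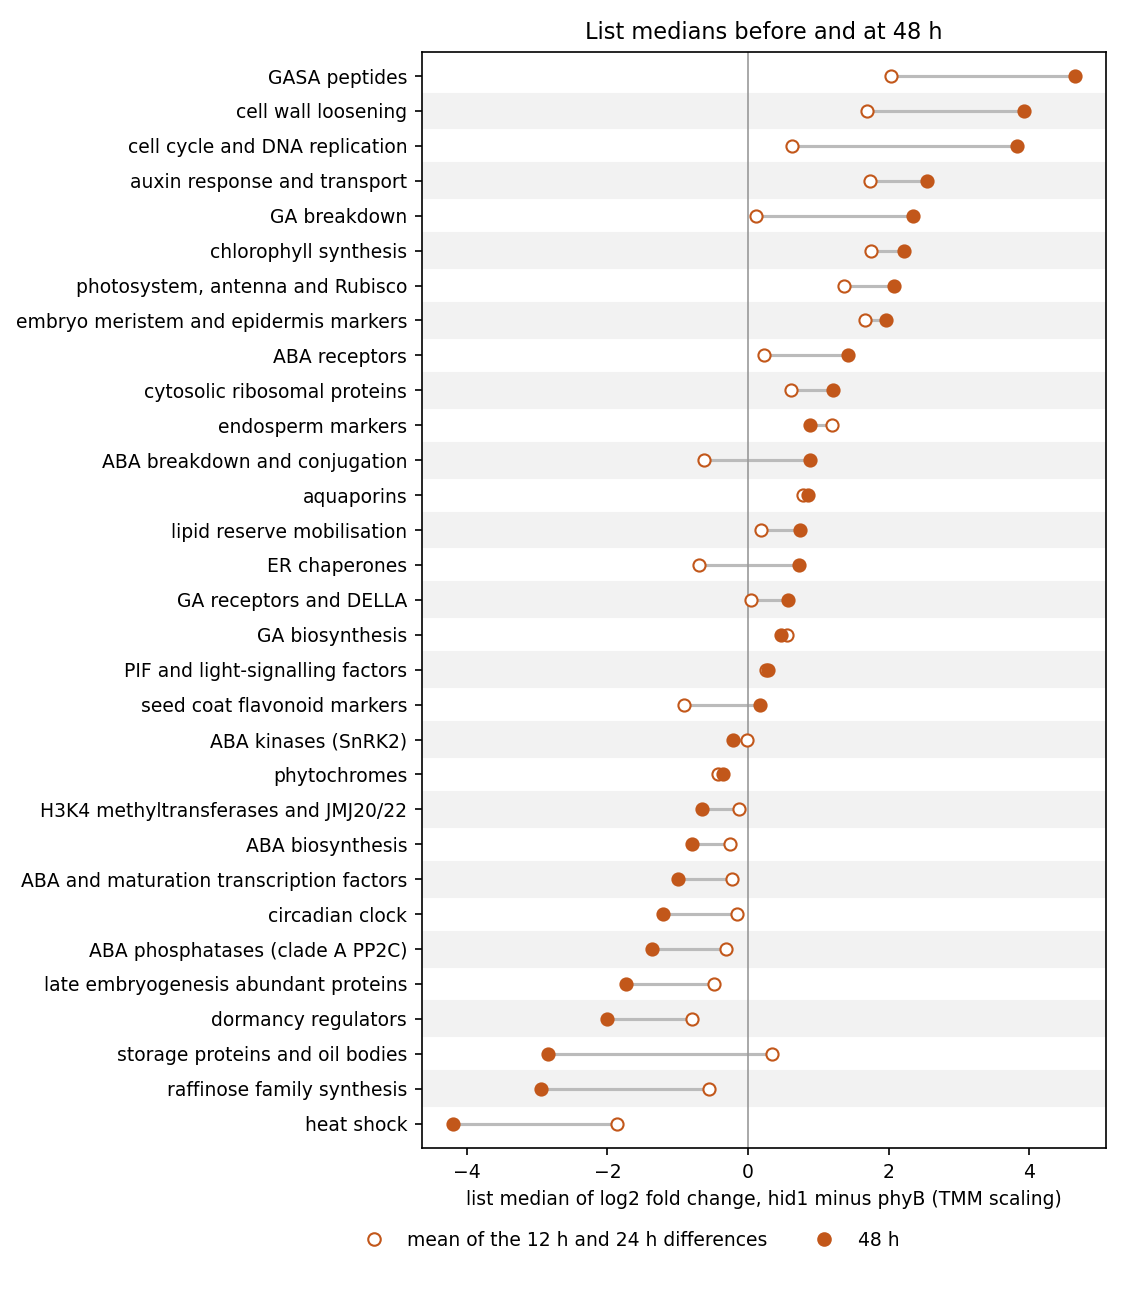
Median log2 fold change of hid1 minus phyB in each gene list, as the mean of the 12 h and 24 h differences (open circles) and at 48 h (filled circles). Opposite differences at 12 h and 24 h cancel in the open circles. Storage genes cross from 0.34 to -2.84, ABA breakdown genes from -0.62 to 0.88 and endoplasmic reticulum chaperones from -0.70 to 0.72. Cell cycle genes move from 0.62 (bounded median 0.77, which leaves out 7 genes) to 3.83 (bounded 3.71). The root hair list is left out. Most of its genes had at most 3 counts in both mutants at 12 h, at 24 h or at both times.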

How the data were processed

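The authors extracted RNA from seeds, selected poly(A) RNA from 1 μg of total RNA, made libraries with a TruSeq kit and read 150 bp pairs on a HiSeq instrument, per the labels' protocols. fastp, HISAT2 2.1.0, SAMtools 1.6 and the TAIR10 build are named in the submitters' processing notes. The sources used here do not state the counting tool, its strand setting or how it treated reads shared between genes.

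The deposited count table holds raw counts as whole numbers, 1 column for each of 27 libraries, with 14750212 to 26293148 counts per library and 5633 of 33612 rows without a count. The deposited FPKM table, by the authors, holds 1 mean per group scaled to transcript length and library size. It has no replicates and carries no test. Counts cover counting error only where an interval or a floor of 3 counts is given, since the reads have no molecular identifiers.

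Libraries were grouped as labelled, into 9 groups of 3. After filterByExpr and TMM scaling, 20465 genes were fitted in edgeR 4.0.16 (limma 3.58.1, R 4.3.3), in 1 quasi-likelihood model of all groups (18 residual degrees of freedom), which was tested on simulated data. The simulation gave hid1 and phyB at 48 h the same levels except in 200 genes. It therefore did not test the scaling under the skew between these groups. The 5 comparisons were hid1 with phyB at 48 h, the same averaged over 12 h and 24 h, the change between these, and each mutant with WT at 48 h. Tests were two-sided, with Benjamini-Hochberg adjustment over all genes tested. Alternatives were total-count and RLE scaling, no filter, DESeq2 1.42.0, a replicate block, a fit of the 6 libraries alone and leaving out each replicate. Over the 6 replicate pairs of the 48 h mutants, the spread was 3.55 to 11.7 times that of counting alone, so no library was a duplicate.

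The comparison, the 32 gene lists (415 genes, 390 tested) and the rule for naming genes were chosen with earlier results of these data known. The rule takes HID1, PHYB, the lists of ABA synthesis, ABA breakdown and dormancy, GA3OX1, GA3OX2, ABI3, ABI5 and PIF1, the 12 largest rises and 12 largest falls (at least 10 CPM in the higher group, no overlap), and up to 4 members per list with the smallest p. CRA1, PYL5, PHYC, CPS, KS, KAO1, KAO2, GA20OX3 and GID1B were named after their values had been seen. Promoters were read from the RefSeq sequence of TAIR10.1, matched by locus tag. Figures were drawn with matplotlib 3.10.9.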

Additional observations from a re-analysis of the deposited data

Results flagged for a closer look

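The difference between hid1 and phyB was not the same at the early times as at 48 h in 13427 genes, by the test of the change itself (48 h minus the mean of 12 h and 24 h, edgeR quasi-likelihood test), or 65.6% of those tested. Of the named genes, 3 were called in opposite directions at the early times and at 48 h with at least a 2-fold difference in each. NCED2, of ABA synthesis, changed by -3.20 ± 0.56 (SE; adjusted p = 1.29e-05), from 1.14 early to -2.07 at 48 h. GA20OX2, of GA synthesis, changed by 4.03 ± 0.35 (adjusted p = 6.90e-11), from -1.05 early to 2.98 at 48 h. TT4, of flavonoid synthesis, changed by 5.95 ± 0.66 (adjusted p = 9.70e-09), from -3.81 early to 2.13 at 48 h. NCED2 and TT4 averaged below 2 CPM in all 3 genotypes at 48 h. The mitochondrial and ribosomal RNA shares of the phyB libraries labelled 12 h differed from those of the other 12 h libraries (ribosomal RNA 0.0673 to 0.0796% against 0.261 to 0.768%), as did those of the phyB libraries labelled 24 h (0.0745 to 0.108%), and their part in these changes was not tested.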

How the results depend on the processing

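The count of genes that passed the test kept within 1.5 times its value in all 5 comparisons under every alternative run. For hid1 against phyB at 48 h it was 15173 to 16543 under total-count and RLE scaling, without the filter, with DESeq2, in the fit of the 6 libraries alone (18179 genes, 4 residual degrees of freedom) and with a replicate block, and 15583 to 15944 when leaving out 1 replicate. Leaving out 1 replicate gave 13533 to 13717 genes for the early mean, 12769 to 13365 for the change, 15599 to 16029 for hid1 with WT and 18015 to 18192 for phyB with WT. Of 151 named genes called at 48 h, 144 kept call and direction in all 12 settings. Total-count scaling turned the sign of NCED6 (0.15), AAO3 (0.22), SNRK2.3 (0.22), SNRK2.2 (0.46), PHYA (0.33), PYL5 (0.15), KS (0.04), KAO1 (0.46) and KAO2 (0.32), and of ABA2 (0.38), NCED3 (0.33), GA20OX3 (0.50) and PHYC (0.61), which were not called under TMM, as its construction moves the median of all genes upward. It also moved 19 of 64 list counts by over 1.5 times. Over all other settings 8 of the 64 counts moved by as much in at least 1 setting, in 21 cases in all, and except for the root hair count these were counts of 1 or 2 genes in the main values. Without the filter, and in the fit of the 6 libraries, 2 storage genes were higher in place of 1 and 2 cell wall genes lower in place of 1, as they were with the replicate block for the cell wall. The fit of the 6 libraries held 5 root hair genes, 3 of them higher. Same-numbered libraries of hid1 and phyB at 48 h correlated at 0.17, 0.02 and 0.10 in their deviations from the group means. For each hid1 library this was its highest correlation with a phyB library, whereas phyB replicate 2 correlated best with hid1 replicate 3 (0.05). The numbers were not taken to pair the samples. With the replicate block 16228 genes passed the test. Low counts limit DOG1, NCED2 and GA3OX2 and the root hair genes.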

Other observations

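HIL1, a row named as a relative of HID1 in the table, held 144, 119 and 139 counts in hid1, against 34, 31 and 32 counts in phyB and 19, 31 and 38 counts in WT (log2 1.45 ± 0.20 for hid1 minus phyB). It was named after its values had been seen. On the TMM scale HIL1 averaged 6.27 ± 0.592 CPM in hid1, 2.3 ± 0.0587 CPM in phyB and 1.16 ± 0.522 CPM in WT, and phyB too was above WT (log2 1.03 ± 0.25, adjusted p = 0.000485, edgeR quasi-likelihood test).

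Some of the largest changes lay close together on chromosome 1, and these genes too were chosen after their values had been seen. AT1G17960 (chr1:6180865-6183806 in TAIR10.1) held 1366, 1168 and 1193 counts in hid1, against 0, 5 and 1 counts in phyB and 24, 26 and 24 counts in WT. AT1G17990 (chr1:6192033-6194093) and AT1G18020 (chr1:6202235-6204234), near-identical copies whose single counts are uncertain for that reason, went the other way. AT1G18020 held 1, 2 and 4 counts in hid1, against 430, 448 and 416 counts in phyB and 6, 7 and 6 counts in WT. Within this stretch the first gene was high in hid1 alone and the other two in phyB alone.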
